A study of Homo sapiens with 6 samples.

Results

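The 26S proteasome is encoded by a gene family whose symbols share the prefix PSM, and all protein-coding genes with symbols PSMA to PSMG followed by a number were taken, 48 of 34834 quantified genes. Of these 48 genes, 46 had counts, and PSMA8 and PSMB11 were listed at 0 in all 6 samples. After the filter on low counts, 42 of them were tested among 11814 genes. The other 4 untested genes were PSMB3, PSMB5, PSMB8 and PSMB9. RNA sequencing was available for SKOV3, a human ovarian cancer cell line. In 3 samples the cells had been transfected with 50 nM of a pooled siRNA against the long non-coding RNA DNM3OS, and in 3 with 50 nM of a pool of non-targeting siRNA, each for 48 h. Both groups were transfected by the same lipid reagent. The design asks which transcripts change when DNM3OS is depleted. None of the 6 transcripts annotated for DNM3OS was among those quantified (0 of 6), so the knockdown itself was not measured by these values.

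The proteasome degrades proteins that carry ubiquitin chains. Its core particle is a barrel of stacked rings, in which outer alpha rings gate the entrance and inner beta rings carry the proteolytic sites. A regulatory particle caps the barrel: its base holds the ATPases that unfold a substrate, and its lid removes the ubiquitin chain. Dedicated chaperones assemble core and base, activators such as PA28 can take the place of the cap, and interferon-induced subunits replace the constitutive catalytic ones to form the immunoproteasome. When proteasome capacity is limiting, the transcription factor NRF1 (NFE2L1) is known to raise the transcription of most subunit genes together.

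The counts were shallow. Summed over transcripts, the libraries held between 1651925 and 1995888 estimated counts in the DNM3OS siRNA group and between 1610937 and 1913407 in the non-targeting group. In a library 3 counts corresponded to between 1.61 and 1.97 CPM (counts scaled to library size), before TMM normalization. The CPM values of single genes below were also TMM-scaled, so this range is only approximate for them. The tested proteasome genes had mean counts between 10.3 and 171, with a median of 39.9. Genes for ribosomal proteins (86 genes) held 0.232%, 0.384% and 0.397% of the knockdown counts and 0.543%, 0.320% and 0.524% of the control counts, so that knockdown replicate 1 and control replicate 2 were lowest in their groups. The kit marks the strand, and the strand setting of the quantification is not given in the sources used here, so the values may not measure sense expression alone. Of the 10 markers listed for SKOV3, 6 passed the filter, led by KRT8 with 1195 to 2566 counts, while MUC16, MSLN, WT1 and KRT7 did not. The leukocyte gene PTPRC held 91 to 148 counts, with CD14 at 0 in all samples. Summed counts over the 5 leukocyte markers ranged from 141 to 214 in the knockdown and from 153 to 165 in the controls. For the 3 endothelial markers they were 24 to 67 and 29 to 45, and for the 5 fibroblast markers 54 to 100 and 55 to 80. The part of these signals in the results was not tested.

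A large share of the counts lay on transcripts annotated as retaining an intron. PSMB10, which encodes the trypsin-like catalytic subunit of the immunoproteasome, gives a short example. Its gene lies at chr16:67934506-67936864 (GRCh38, minus strand), and the transcript PSMB10-205, annotated as retained intron, held 63.1% of its counts. The introns below are kept in that transcript and removed in the coding one. Each is shown 5′ to 3′ on the gene's strand with 10 exonic bases on either side, and capitals mark the first and last intronic bases, the GT donor and the AG acceptor. The first spans 208 bases at chr16:67936486-67936693, shown as chr16:67936476-67936703, and the second spans 111 bases at chr16:67936104-67936214, shown as chr16:67936094-67936224.
PSMB10 intron of 208 bases: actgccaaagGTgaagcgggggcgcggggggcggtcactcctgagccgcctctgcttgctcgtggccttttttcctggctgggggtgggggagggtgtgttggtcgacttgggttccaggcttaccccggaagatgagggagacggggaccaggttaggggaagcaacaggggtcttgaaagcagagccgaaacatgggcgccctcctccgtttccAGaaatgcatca
PSMB10 intron of 111 bases: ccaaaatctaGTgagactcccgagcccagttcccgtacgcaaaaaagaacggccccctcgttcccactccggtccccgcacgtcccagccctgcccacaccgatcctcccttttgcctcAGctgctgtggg

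Promoters were searched for the core of the antioxidant response element, the site that NRF1 and its relative NRF2 bind, spelled TGACNNNGC and read on both strands. RefSeq promoter windows (250 bases before to 50 after the start, GRCh38.p14) were at hand for 42 of the 48 genes, and not for PSMA7, PSMB1, PSMB6, PSMB7, PSMD4 and PSMG3. The motif was present in 13 of these 42 windows (31.0%) and in 3702 of all 27305 windows (13.6%). The shorter CCAAT box occurred in 19 of the 42 (45.2%) and in 35.7% of all windows. Of the 5 genes with separated groups described below that had a window, PSMG1 alone held the first motif. Its window, at chr21:39183402-39183701 on the minus strand, is shown with the match in capitals. A match of these letters is a description of the window and not evidence of binding.
PSMG1 promoter: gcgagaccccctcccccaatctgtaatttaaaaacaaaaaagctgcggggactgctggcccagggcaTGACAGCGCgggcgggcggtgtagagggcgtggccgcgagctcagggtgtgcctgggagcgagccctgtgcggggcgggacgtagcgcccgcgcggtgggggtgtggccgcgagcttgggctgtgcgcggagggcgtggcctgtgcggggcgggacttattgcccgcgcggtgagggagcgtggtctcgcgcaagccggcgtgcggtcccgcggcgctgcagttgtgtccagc

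Proteasome genes spanned about 2 orders of magnitude in level. On the length-normalized scale of TPM, the highest mean over the 6 samples belonged to PSMA3, an alpha ring subunit, with 261, 161 and 142 TPM in the knockdown and 179, 208 and 181 TPM in the controls. PSMB10 followed with 163, 152 and 133 TPM against 152, 104 and 113 TPM. PSMB7, the constitutive trypsin-like subunit that PSMB10 replaces, had 135, 118 and 112 TPM against 120, 111 and 150 TPM. For each of these genes the ranges of the groups overlapped. PSMD4, a ubiquitin receptor of the base, had 56.0, 124 and 108 TPM against 118, 75.4 and 93.1 TPM, and PSMD7, a lid subunit, had 78.4, 83.9 and 102 TPM against 105, 91.2 and 102 TPM. The lowest of the 46 genes with counts were the other immunoproteasome subunits, PSMB9 with a mean of 2.16 TPM and PSMB8 with 1.59 TPM. Between no neighbours in the order of mean TPM did all 6 samples of the higher gene exceed all 6 of the lower one, so the rank order is coarse. The order also depends on the transcripts counted. On protein-coding transcripts alone PSMB7 led with a mean of 104 TPM, followed by PSMD7 with 75.1 TPM and PSMD4 with 68.3 TPM, while PSMB10 stood at 37.7 TPM and PSMA3 at 23.1 TPM.

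**Figure D1:**
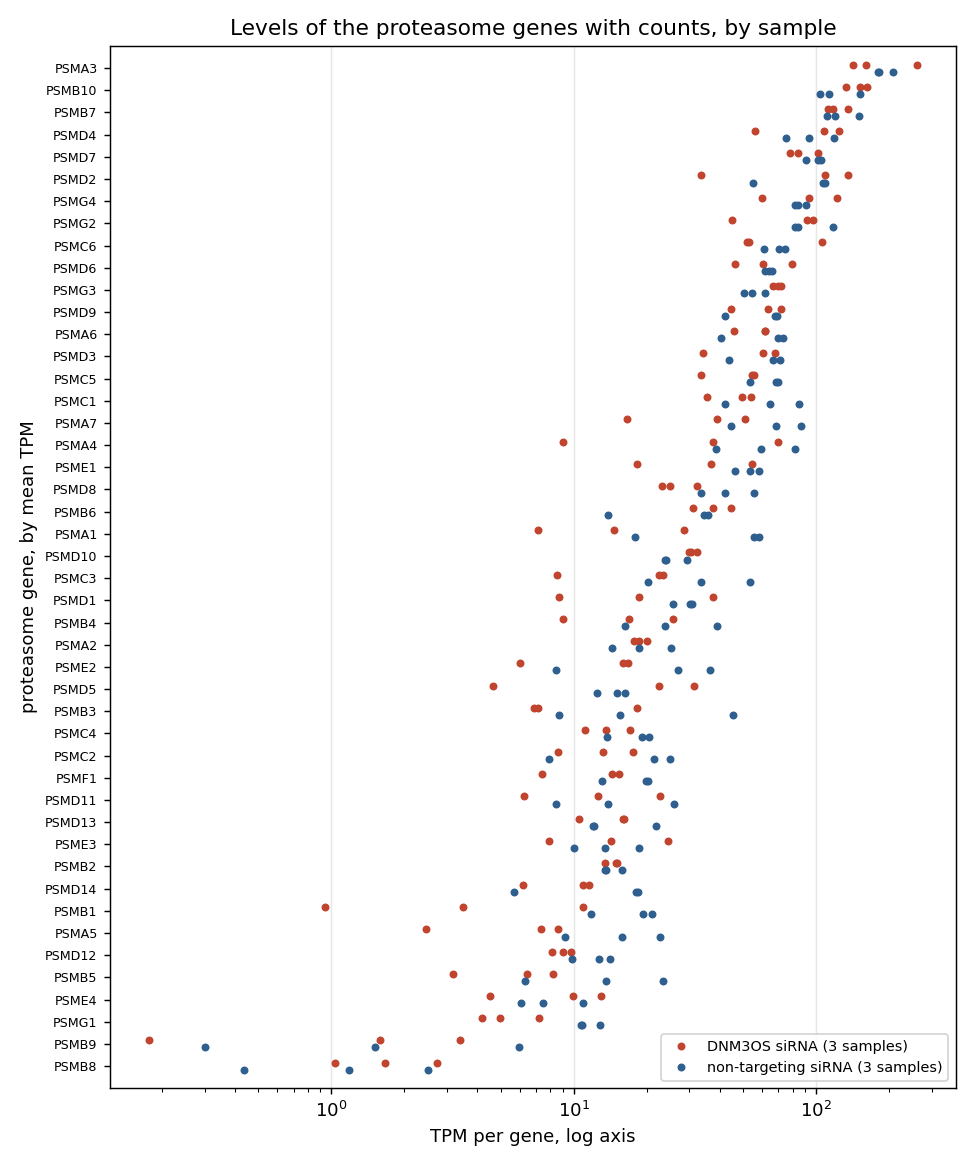
TPM of each of the 46 proteasome genes with counts on a log axis, ordered by the mean over 6 samples. Red points are the 3 DNM3OS siRNA samples and blue points the 3 non-targeting samples. PSMA3 leads with a mean of 188.8 TPM, PSMB8 is last with 1.59 TPM, and the spread between samples is wider than the step from one gene to the next.

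Summed over the family, TPM reached 1746, 1875 and 1973 in the knockdown (1865 ± 114, SD, n = 3) and 2356, 1759 and 2203 in the controls (2106 ± 310, SD, n = 3). Control replicate 2 lay among the knockdown samples, so the groups overlapped. As a share of all counts on genes, the family held 0.146%, 0.130% and 0.141% in the knockdown and 0.166%, 0.135% and 0.156% in the controls, again with overlap. Levels per cell cannot be read from these shares, since a share also depends on the counts of all other genes. The highest mean count of a single tested gene was 335027.

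No proteasome gene passed the threshold, a change of 2-fold or more at an adjusted p under 0.05 (0 of 42; edgeR's exact test with Benjamini-Hochberg adjustment over all 11814 genes). Across all genes 0.00846% did, which was 1 gene. The lowest adjusted p among the 42 was 1, so no direction given below passed the test. At an unadjusted p below 0.05, 3 of the 42 were lower in the knockdown (7.14%, against 1.91% of all tested genes) and 0 were higher (against 1.01%). By edgeR's quasi-likelihood test and by DESeq2, 0 passed the threshold as well, and 3 had an unadjusted p below 0.05 under each, against 2.93% and 1.63% of all tested genes. These were PSMB1, PSMA1 and PSMG1 under the former and PSMB1, PSMA1 and PSMA7 under DESeq2. The groups did not overlap, with the knockdown lower, for 4 of 42 genes (9.52%, background 3.56%), and with the knockdown higher for 3 of 42 (7.14%, background 4.42%).

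A lower mean was the more common direction. The knockdown mean was below the control mean for 32 of 42 genes (76.2%), against 49.4% of all tested genes, and above it for 10. The median log2 fold change was -0.15, with a range from -1.81 to 0.39, while the median over all tested genes was 0.00417. Knockdown replicate 1 was the lowest knockdown sample for 30 of the 42 genes (71.4%, against 40.8% of all tested genes), and control replicate 2 the lowest control for 30 (71.4%, against 38.9%). Both held for 25 genes (59.5%, against 24.3%). These are also the libraries with the smallest ribosomal protein share in their groups, and the part of this in the result was not tested. Leaving out both libraries was an alternative added after the data were seen. Without them, 29 of 42 genes had a lower mean (against 48.9% of all tested genes), with a median log2 fold change of -0.22. The groups then did not overlap for 18 of 42 genes in the lower direction (against 19.9% of all tested genes). In the higher direction this held for 5 of 42 (against 20.6%), each group being left with 2 samples. The lowest adjusted p of a proteasome gene was then 0.108 by the exact test, for PSMA1.

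**Figure D2:**
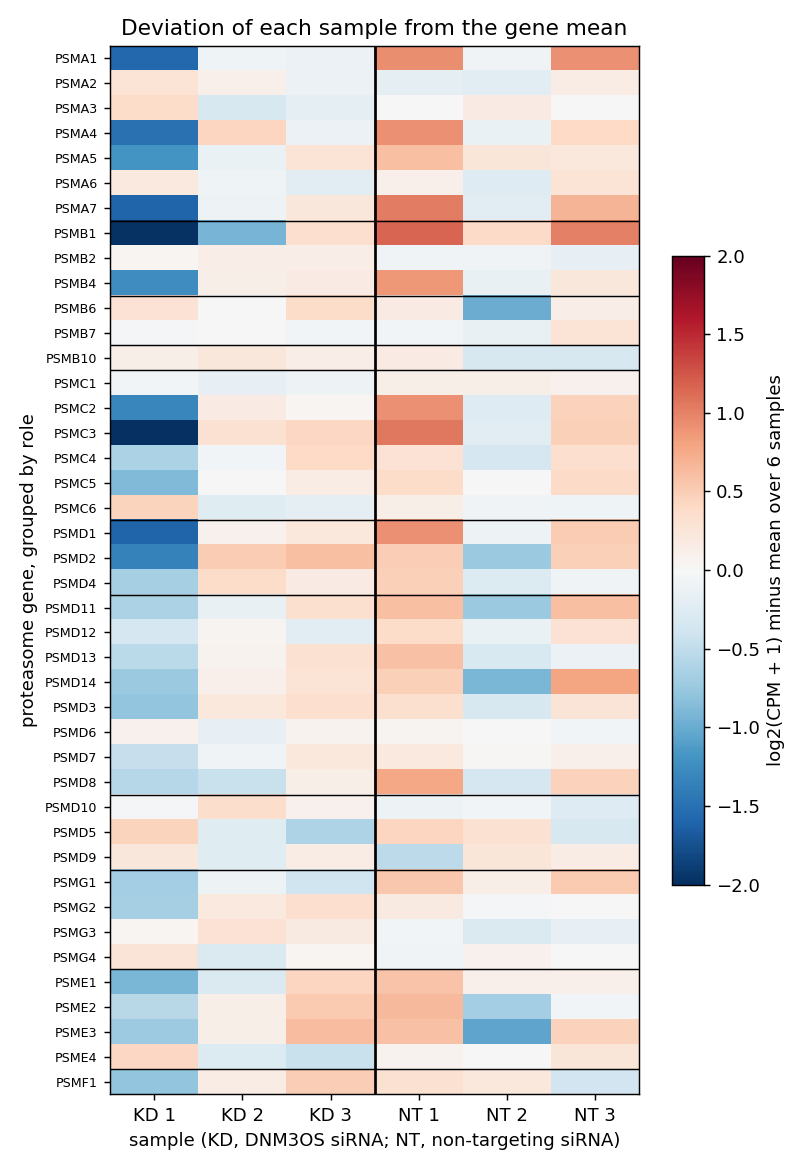
Deviation of each sample from the gene's mean over 6 samples, in log2(CPM + 1), for the 42 tested genes grouped by role (horizontal lines) and split by group (vertical line). The colour scale stops at 2 on either side. The first knockdown column is the lowest of its group in 30 of 42 genes, and the middle control column is the lowest of its group in 30.

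In the alpha ring, 6 of the 7 tested genes had a lower mean, with a median log2 fold change of -0.69, and 0 passed the test. PSMA1 (ENSG00000129084, chr11:14504874-14643635, minus strand) held 9, 20 and 19 counts in the knockdown and 50, 21 and 48 in the controls. In CPM scaled by TMM the knockdown samples stood at 4.19, 13.5 and 13.3 and the controls at 28.5, 13.7 and 28.2. The groups were therefore separated by a narrow gap between control replicate 2 and the upper knockdown samples, and with length-scaled TPM counts they overlapped. The mean was 10.3 ± 5.33 CPM against 23.5 ± 8.44 CPM (SD, n = 3 each), a log2 fold change of -1.22 (SE 0.58), with an unadjusted exact test p of 0.0113 and an adjusted p of 1. PSMA3, the highest in TPM summed over all transcript types, held 231, 98 and 105 counts against 145, 142 and 141, and the high first knockdown sample put the groups across each other (log2 fold change -0.05, SE 0.22). The other members ran from PSMA7 (-0.94, SE 0.67) through PSMA5 and PSMA4 (each -0.69) and PSMA6 (-0.08) to PSMA2 (0.19, SE 0.16).

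The beta ring held the largest change in each direction. PSMB1, a structural subunit without a proteolytic site (ENSG00000008018, chr6:170535120-170553307, minus strand), had 1, 3 and 9 counts in the knockdown and 21, 10 and 18 in the controls. All knockdown samples were below all controls, at 2.94 ± 3.03 CPM against 9.70 ± 2.81 CPM (SD, n = 3 each). Its log2 fold change was -1.81 (SE 0.67), with an unadjusted exact test p of 0.00592 and an adjusted p of 1. Knockdown replicates 1 and 2 were at or below 3 counts, so the size of the change is poorly fixed, and leaving out single samples moved it between -3.03 (without knockdown replicate 3) and -1.21 (without knockdown replicate 1). PSMB2, also structural, went the other way with 70, 52 and 50 counts against 53, 46 and 48. Scaled to library size these were 32.6, 35.1 and 35.1 CPM against 30.2, 30.1 and 28.2 CPM. The difference was small (log2 fold change 0.21, SE 0.05, unadjusted exact test p 0.392). The exact permutation p was 0.1, the smallest that 3 against 3 can give. With length-scaled TPM counts the log2 fold change of PSMB2 was 0.01 and its groups overlapped. PSMB4 had a lower mean (-0.65, SE 0.54) with overlapping groups, and PSMB3 had 3, 4 and 7 counts against 3, 5 and 22.

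Among the constitutive catalytic subunits, PSMB6, the caspase-like one, held 27, 15 and 19 counts against 20, 7 and 19. Its log2 fold change of 0.39 (SE 0.39) was the highest of the 42, with overlapping groups and 1 low control. Retained-intron transcripts carried 82.5% of its counts, and on coding transcripts alone the difference was -0.10 on the log2 scale of mean TPM. PSMB7 held 152, 108 and 99 counts against 122, 100 and 149, with no separation (-0.06, SE 0.13). One of its transcripts without a defined coding sequence, ENST00000498485, held 88.8 counts in knockdown replicate 1 and 36.6 in control replicate 2 and was at or near 0 in the other 4 samples. The pattern was defined as at least 10 counts in both of those libraries and fewer than 1 in each of the others. Of 120 proteasome transcripts with a mean of at least 3 counts, this was the only 1 to meet it. Of all 30241 transcripts with such a mean, 18 did. The reverse pattern, with the 2 sets of libraries exchanged, held for 42 of the 30241 and for 0 of the 120. PSMB5, the chymotrypsin-like subunit and main target of proteasome inhibitors, had 2, 5 and 4 counts against 16, 3 and 10 and was too low to test.

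The immunoproteasome subunits were present in unequal amounts. PSMB10 held 188, 141 and 126 counts against 159, 99 and 110. In CPM these were 87.4, 95.2 and 88.4 against 90.6, 64.8 and 64.7, so that control replicate 1 lay within the knockdown range (log2 fold change 0.30, SE 0.16). PSMB8 had 2, 2 and 3 counts against 4, 1 and 2, and PSMB9 had 11, 0 and 4 against 17, 3 and 1. Both were near or below the floor of 3 counts in most samples, and retained-intron transcripts carried 96.9% of the counts of PSMB9. PSMB10 thus stood at a mean of 136.0 TPM beside 2.16 TPM for PSMB9 and 1.59 TPM for PSMB8. The coding transcript PSMB10-201 held 60.5, 39.9 and 47.8 counts in the knockdown and 45.0, 38.4 and 26.6 in the controls. The retained-intron transcript printed above, PSMB10-205, held 114, 91.7 and 75.2 against 106, 57.2 and 75.1. These counts were not scaled to library size, and without that scaling the groups overlapped on both transcripts. Whether they separate on the CPM scale used for genes was not examined.

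**Figure D3:**
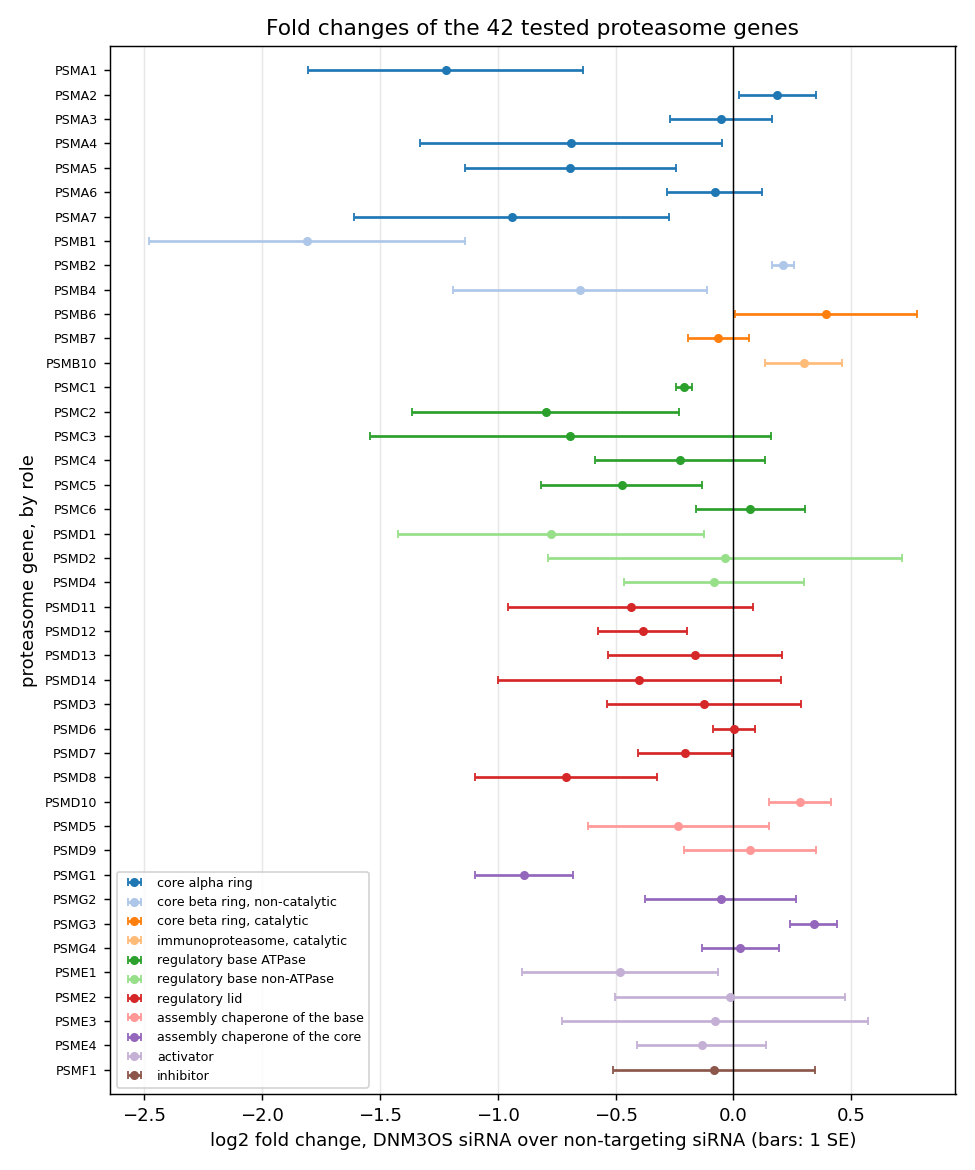
Log2 fold change (DNM3OS siRNA over non-targeting siRNA) of the 42 tested proteasome genes with bars of 1 SE, coloured and ordered by role. PSMB1 is lowest at -1.81 and PSMB6 highest at 0.39, and 32 of the 42 points lie left of 0.

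In the regulatory particle the direction was mostly lower and 0 genes passed the test. Of the 6 ATPases of the base, 5 had a lower mean (median log2 fold change -0.35), of the 3 other base subunits 3 (median -0.08), and of the 8 lid subunits 7 (median -0.29). PSMC1 was the ATPase with separated groups, with 197, 126 and 126 counts in the knockdown and 182, 157 and 171 in the controls. Its CPM values of 91.6, 85.1 and 88.4 against 104, 103 and 101 gave the smallest SE of the 42 genes. That SE measures only the spread between the 3 samples of each group. The difference was small (log2 fold change -0.21, SE 0.03, exact permutation p 0.1, unadjusted exact test p 0.308). With length-scaled TPM counts its groups overlapped, at -0.48. Exons of PSMC1 overlapped exons of NRDE2 on the opposite strand over 4667 bases. PSMC2 (-0.80, SE 0.57) and PSMC3 (-0.69, SE 0.85) had lower means with wide errors, and PSMC6 (0.07, SE 0.23) had a slightly higher one. PSMD4 held 34, 49 and 41 counts against 63, 32 and 41 (-0.08, SE 0.38), and PSMD7 138, 125 and 146 against 179, 138 and 162 (-0.20, SE 0.20), both with overlap. The lid deubiquitinase PSMD14 had a log2 fold change of -0.40 (SE 0.60), and PSMD8 the lowest of the lid at -0.71 (SE 0.38). The scaffold subunits PSMD1 (-0.77, SE 0.65) and PSMD2 (-0.04, SE 0.75) had overlapping groups.

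Assembly chaperones did not share a direction. PSMG1 (ENSG00000183527, chr21:39174769-39183488, minus strand), which builds the alpha ring, held 12, 13 and 10 counts in the knockdown and 25, 16 and 24 in the controls. All knockdown samples were lower, at 7.13 ± 1.60 CPM against 12.9 ± 2.14 CPM (SD, n = 3 each), with a log2 fold change of -0.89 (SE 0.21), an unadjusted exact test p of 0.0226 and an adjusted p of 1. PSMG3, another core chaperone, held 88, 72 and 64 counts against 67, 49 and 60. In CPM it was higher in every knockdown sample, at 44.8 ± 3.85 against 35.2 ± 3.04 (log2 fold change 0.34, SE 0.10, exact permutation p 0.1, unadjusted exact test p 0.145). PSMD10 (gankyrin), a chaperone of the base, held 37, 34 and 27 counts against 29, 26 and 25. Its CPM values also did not overlap, at 17.2, 23.0 and 18.9 against 16.5, 17.0 and 14.7 (log2 fold change 0.28, SE 0.13, exact permutation p 0.1, unadjusted exact test p 0.353). The gap was narrow and was lost with length-scaled TPM counts. PSMG2 (-0.05), PSMG4 (0.03), PSMD9 (0.07) and PSMD5 (-0.23) overlapped. The activators PSME1, PSME2, PSME3 and PSME4 all had lower means, between -0.48 and -0.02, with overlapping groups, and the inhibitor PSMF1 stood at -0.08 (SE 0.43).

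**Figure D4:**
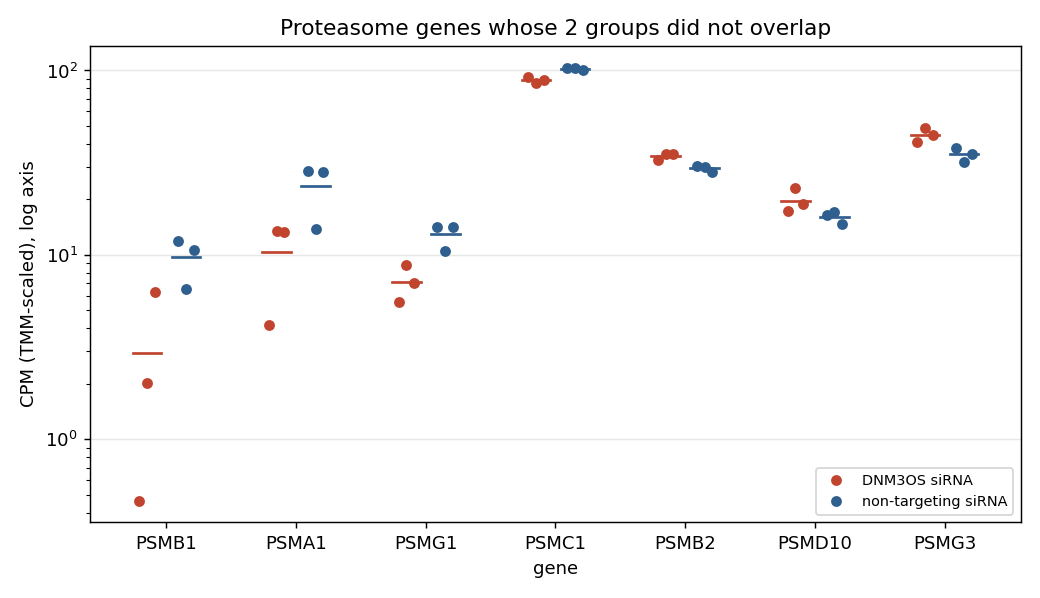
CPM (TMM-scaled, log axis) of the 7 proteasome genes whose groups did not overlap. Points are samples and bars the group means. PSMB1, PSMA1, PSMG1 and PSMC1 were lower and PSMB2, PSMD10 and PSMG3 higher in all 3 knockdown samples, with the largest ratio between means in PSMB1 (2.94 against 9.70 CPM).

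Retained-intron transcripts took a larger share of the proteasome counts than of all counts in every sample. The family's 439 quantified transcripts comprised 199 annotated as protein-coding and 141 as retained intron. Retained-intron transcripts held 46.4%, 34.7% and 33.3% of the family's counts in the knockdown and 28.4%, 37.7% and 30.6% in the controls. Over all annotated genes the same type held between 11.1% and 14.1%. That share was weighted by counts over genes of every class, 1 of which had a mean of 335027 counts. For protein-coding transcripts the family's shares were 41.6%, 56.5% and 56.7% against 61.5%, 51.3% and 58.3%, beside 60.5% to 64.9% for all genes. The groups overlapped in both types, with knockdown replicate 1 and control replicate 2 at the retained-intron end of their groups. In 14 of the 46 genes with counts, among them PSMA2, PSMA3, PSMA6, PSMD6 and PSMB10, retained-intron transcripts held over 50% of the counts. In 28, protein-coding transcripts did. Genes were not counted this way outside the family, so these 2 counts have no matching background.

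**Figure D5:**
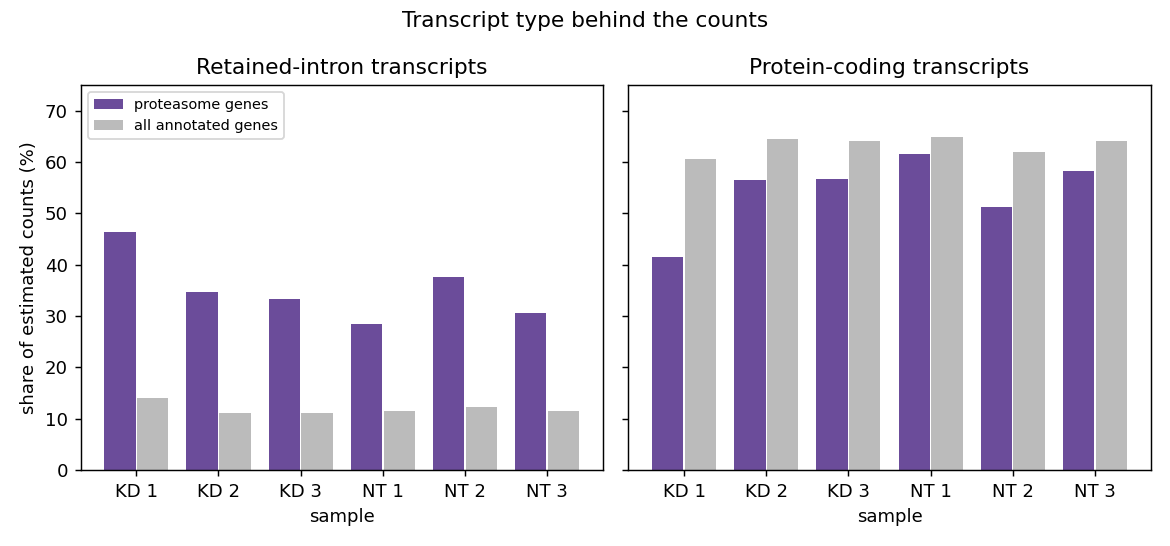
Share of estimated counts on retained-intron (left) and protein-coding (right) transcripts in each sample, for the proteasome genes (purple) and all annotated genes (grey). The retained-intron share of the proteasome genes lies between 28.4% and 46.4%, above that of all genes in every sample.

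The lower means were more frequent among genes counted mostly on coding transcripts. This split was made after the values were seen and was not tested. It was not made over all tested genes, so the shares below have no matching background. Of the 26 tested genes with over 50% of counts on protein-coding transcripts, 23 had a lower mean (88.5%), with a median log2 fold change of -0.39. Knockdown replicate 1 was the lowest knockdown sample in 23 of these 26, and both it and control replicate 2 were lowest in 19 (73.1%). Of the other 16 genes, 9 had a lower mean (56.2%) with a median of -0.03, and knockdown replicate 1 was the highest knockdown sample in 8. Exons of another gene on the opposite strand overlapped 15 of the 42 tested genes (35.7%, against 44% of all tested genes). These 15 had a median log2 fold change of -0.08 and a median level of 55.1 TPM, and the 27 without such overlap -0.23 and 28.3 TPM.

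Among other genes of the ubiquitin pathway, 0 passed the threshold in every list. All 6 genes for ubiquitin precursors and ubiquitin-activating enzymes had lower means. UBA1, the main activating enzyme, held 67, 49 and 54 counts in the knockdown and 74, 63 and 69 in the controls. Its groups were separated (log2 fold change -0.29, SE 0.08, exact permutation p 0.1, unadjusted exact test p 0.238). UBB, a polyubiquitin gene, held 10, 63 and 65 counts against 138, 59 and 125 (-1.05, SE 1.04), with the groups overlapping through control replicate 2. Of 8 tested shuttle factors and p97 complex genes, 5 had lower means. VCP, the p97 ATPase that extracts ubiquitylated proteins, held 28, 55 and 59 counts against 155, 57 and 117 (-1.10, SE 0.62, unadjusted exact test p 0.0117, adjusted p 1), and its groups overlapped between 1 control and the knockdown. Among 9 tested genes of NRF1 and NRF2 control, 6 had lower means. NFE2L1 itself held 71, 57 and 56 counts against 96, 53 and 99, with overlap (-0.42, SE 0.24).

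The 12 proteasome-associated factors divided into 7 with lower and 5 with higher means, and none had separated groups. POMP, which matures the core particle, held 3, 12 and 3 counts against 11, 5 and 15 (log2 fold change -0.71, SE 0.66). The lid subunit SEM1, whose symbol lies outside the family prefix, held 178, 92 and 75 against 87, 100 and 93 (0.23, SE 0.22). The ubiquitin receptor ADRM1 held 38, 40 and 43 against 64, 30 and 65 (-0.35, SE 0.37). In each of these the groups overlapped. Of 8 tested antigen processing genes, the pathway that the immunoproteasome supplies with peptides, 5 had lower and 3 higher means, with no separated groups.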

How the data were processed

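Stranded libraries came from total RNA after ribosomal RNA removal, and the authors ran quantification with kallisto 0.43.0 (submitters' processing notes) against GRCh38 transcripts. They deposited, for each of 173259 transcripts, an estimated count without normalization and a TPM. Here the 155518 transcripts in GENCODE release 44 were mapped to genes (93.6% to 95.2% of counts), their estimated counts added up by gene and rounded to whole numbers, and TPM was summed without rounding. Genes were filtered with filterByExpr (minimum count 10), TMM-normalized and tested with the exact test (edgeR 4.0.16; R 4.3.3), p-values being adjusted by Benjamini and Hochberg's method. Genes were called at 2-fold with an adjusted p below 0.05. SE is that of log2 CPM between replicates, with a prior count of 2. It rests on 3 samples in each group and is not the error of edgeR's log2 fold change printed beside it. DESeq2 1.42.0 and edgeR's quasi-likelihood test were alternatives. Opposite-strand exons were found with bedtools 2.31.1. Two-sided exact permutation tests on log2 CPM cannot give a p below 0.1 with 3 samples against 3. Nothing states that samples were separate cultures, so p-values measure the spread between these samples only.

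On simulated data for this comparison (11444 genes), the exact test recovered 199 of 200 genes changed by 2 on the log2 scale. It made 36 other calls. Counts were drawn separately for each gene around means scaled to library size. Deviations shared by many genes of a library, as in knockdown replicate 1 and control replicate 2, were therefore not simulated. The 200 genes were drawn only from genes with mean counts above that of PSMA1 (27.8). Recovery at the lower counts of PSMB1, PSMG1 and PSMB6 was therefore not simulated. Genes were given with values in every sample if they were catalytic beta subunits, among the 5 highest by TPM, separated between groups, below an unadjusted p of 0.05, or the largest change in either direction. The members and lists were chosen with earlier results of these data known. Marker lists and library exclusions are descriptions.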

Additional observations from a re-analysis of the deposited data

How the results depend on the processing

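The count of proteasome genes past the threshold was 0 under every alternative run, and that with an unadjusted p below 0.05 was 3 in the main analysis and ranged from 1 to 7 when each sample was left out in turn. Over these omissions, separated genes ranged from 4 to 14 (knockdown lower) and from 3 to 5 (knockdown higher), the median log2 fold change from -0.36 to -0.12, and genes with a lower mean from 27 to 32. Without control replicate 2, 7 had an unadjusted p below 0.05 (all genes 7.15%) and 14 were separated lower (14.99%). Without knockdown replicate 3, the same counts were 7 (4.91%) and 9 (8.64%), and the lowest adjusted p of the exact test was 0.160, for PSMB1. Without knockdown replicate 1, 1 had an unadjusted p below 0.05 (2.84%), 7 were separated lower (7.59%) and 5 higher (10.5%). Without control replicate 1 or control replicate 3, 1 had an unadjusted p below 0.05 (1.12% and 1.45%), and without knockdown replicate 2, 5 were separated higher (9.73%). Without knockdown replicate 1 and control replicate 2 together, an alternative added after the data were seen, 5 had an unadjusted p below 0.05 (8.85%), 18 were separated lower (19.9%) and 5 higher (20.6%), and PSMD4 turned to 0.0621, while 39 of 11975 genes passed the threshold. Length-scaled TPM counts left 1 gene separated higher (all genes 4.48%) and turned PSMD4 to 0.0102. With them 4 were separated lower (3.99%), among them PSMA5, while PSMA1 and PSMC1 overlapped. Coding transcripts alone, added after the data were seen for single genes, turned PSMB6 to -0.10, and gave summed levels of 834 TPM (knockdown) and 1046 TPM (control). Leaving out single samples, PSMA3 ranged from -0.29 to 0.0826, turning positive when knockdown replicate 2 (0.0826), knockdown replicate 3 (0.0239) or control replicate 2 (0.0112) was omitted. PSMB7 ranged from -0.14 to 0.0624 (the latter without control replicate 3), and PSMD4 from -0.31 to 0.203 (the latter without knockdown replicate 1, and 0.173 on omitting control replicate 1). Their causes were not tested. With the replicate block, 2 genes had an unadjusted p below 0.05 (all genes 1.35%). The median was then -0.18 (all genes -0.00722), and 32 had a lower mean (all genes 50.9%). Same-numbered samples deviated together at a mean correlation of -0.17 (range -0.40 to 0.23), so the numbers were not taken to pair them. Of 281 alternative values, 9 changed sign and 16 counts or summed levels moved by over 1.5 times or, for levels, over 1 SD. The other 256 kept their direction and their side of the threshold, though not always their size. The tested genes had a median of 39.9 counts. Recovery of changes below 2 on the log2 scale was not simulated, nor was any change in genes counted as low as PSMA1.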

Other observations

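Pseudogenes named after the family could share reads with their parent genes. Of 44 such pseudogenes, 27 had a rounded count of 0 in all samples and 3 were tested, each with overlapping groups. PSMD10P1 held 101, 47 and 36 counts in the knockdown and 49, 59 and 52 in the controls, PSMD4P1 held 39, 14 and 9 against 17, 29 and 6, and PSMD10P2 held 24, 12 and 8 against 15, 6 and 17. PSMD10P1 thus had more counts than PSMD10 itself in every sample. The values of PSMD10 and PSMD4 are uncertain to the extent that reads were divided between them and these copies.

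Antigen processing genes stood at very different levels. The aminopeptidase ERAP1 held 364, 246 and 216 counts in the knockdown and 256, 267 and 268 in the controls (log2 fold change 0.03, SE 0.09). The peptide transporter gene TAP1 held 3, 9 and 31 counts against 21, 52 and 20, with a spread inside each group as wide as the difference between them (-1.0, SE 1.03).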
